A study of Mus musculus with 6 samples.

Results

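Granule cell identity genes of the cerebellum were examined on 6 brain microarrays from mice with and without an intact reelin pathway. The 9 members are Fat2, Neurod1, Pax6, Barhl1, Barhl2, Cadps2, Mab21l1, Il16 and Rcor2, out of 18194 genes named on the array. Every one of the 19 probe sets that the platform annotation gives to a member was taken, and 7 of the 9 members lay among the 11499 genes past a filter on dim signal. The members were chosen from their lower signal in the reeler models on these same arrays, so that contrast is given for them as a description, with no test. Each array held RNA from 1 lobe of tissue labelled frontal cortex, from an untreated mouse of 21 days labelled male, on a mixture of C57BL/6 and 129. Mating of mice heterozygous for both receptors gave the wild type (WT), the Vldlr knockout, the Apoer2 knockout and the knockout of both receptors. The Dab1 knockout and the Reln knockout came from separate matings, of mice heterozygous for Dab1 and for reeler. Reeler models here means the animals without Dab1, without Reln or without both receptors, and the other 3 arrays serve as comparison arrays. Each genotype had 1 array and no replicate, which limits how precise any value can be. The labels used here do not state which exons the knockouts lack, and no array of a normal littermate is labelled for the Dab1 and Reln knockouts.

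Cerebellar granule cells are small excitatory neurons that arise from the rhombic lip, multiply in the external granular layer after birth and then migrate inward past the Purkinje cells. Their identity rests on transcription factors such as Neurod1, Pax6 and the Barhl pair, and mature cells send out parallel fibres that contact Purkinje cell dendrites. Reelin signals through Vldlr and Apoer2 (gene symbol Lrp8) to the adaptor Dab1, and loss of the pathway leaves the cerebellum small, with misplaced Purkinje cells and few granule cells. Several members are not private to granule cells, since Pax6, Neurod1 and Il16 also have roles in other neurons or in lymphocytes.

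Promoter sequences are shown for 4 members whose signal separated the arrays, to show what lies before genes of this programme. RefSeq (GRCm38.p6) held promoters for 8 of the 9 members, 12 in all, and Mab21l1 had no entry. The E-box, the hexamer CANNTG bound by basic helix-loop-helix proteins such as Neurod1, reads the same on both strands and was searched in the 250 bases before each listed transcript start. It is set in capitals below, 5′ to 3′ along the gene. Neurod1 lies at chr2:79456637-79456886 on the minus strand and Rcor2 at chr19:7267144-7267393 on the plus strand. Cadps2 lies at chr6:23839422-23839671 and the most upstream listed Il16 promoter at chr7:83735540-83735789, both on the minus strand.
Neurod1: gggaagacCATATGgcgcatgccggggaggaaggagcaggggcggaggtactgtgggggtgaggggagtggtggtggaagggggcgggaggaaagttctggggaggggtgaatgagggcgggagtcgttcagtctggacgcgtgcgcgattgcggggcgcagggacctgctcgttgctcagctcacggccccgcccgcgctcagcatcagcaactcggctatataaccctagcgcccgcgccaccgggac
Rcor2: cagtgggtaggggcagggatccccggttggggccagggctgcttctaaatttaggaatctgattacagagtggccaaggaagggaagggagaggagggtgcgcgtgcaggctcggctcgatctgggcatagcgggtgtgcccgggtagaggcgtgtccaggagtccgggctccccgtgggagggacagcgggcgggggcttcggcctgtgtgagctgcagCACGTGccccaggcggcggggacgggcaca
Cadps2: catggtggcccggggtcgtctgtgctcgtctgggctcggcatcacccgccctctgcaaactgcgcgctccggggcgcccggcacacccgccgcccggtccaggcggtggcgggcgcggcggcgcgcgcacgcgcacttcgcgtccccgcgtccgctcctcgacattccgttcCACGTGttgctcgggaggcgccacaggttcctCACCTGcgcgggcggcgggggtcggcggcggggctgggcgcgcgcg
Il16: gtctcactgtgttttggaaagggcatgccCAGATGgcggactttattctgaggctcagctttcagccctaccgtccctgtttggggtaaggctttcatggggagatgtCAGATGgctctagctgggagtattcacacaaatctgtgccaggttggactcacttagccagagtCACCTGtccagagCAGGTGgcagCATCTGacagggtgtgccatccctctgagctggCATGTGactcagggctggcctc

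An E-box was present in 11 of the 12 member promoters and in 66.2% of all 32851 promoters of that length. The 3 listed Il16 promoters held 1, 2 and 6 E-boxes, with a mean of 1.16 per promoter over all genes. In the one printed, the richest of them, 3 of the 6 were CAGATG or its reverse complement CATCTG, a form found in 14.4% of all promoters. The single match before Neurod1 began at position -242 from the start and was CATATG. Rcor2 and Cadps2 each held CACGTG, a form present in 6.02% of all promoters, at positions -30 and -78. Both Barhl1 promoters held CAGCTG, which 13.0% of all promoters hold. One of the 2 Pax6 promoters lacked an E-box and held the cAMP response element TGACGTCA, present in 1.55% of all promoters. The stretch listed for Fat2 lay 25248 bases inside the gene's span, so it may not be the start that granule cells use and it is not printed. The printed Il16 and Cadps2 stretches lay 10489 and 1754 bases inside their spans, while those of Neurod1 and Rcor2 lay at the gene's own 5′ end. Both Barhl1 stretches (5489 and 1316 bases), the other Il16 stretches (90533 and 13630) and the Pax6 stretch with an E-box (13567) also lay inside. The count of 11 thus includes many stretches within genes. These matches describe letters, not bound sites.

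Signals are on a linear scale, and array medians ran from 86.5 to 92.3. Control probe sets for bacterial RNA, a sequence mice lack, had a highest signal of 28.4 to 39.6 depending on the array, and values at or below that are bounds rather than levels. At its brightest probe set each targeted gene was lowest where it was knocked out, with Reln at 79.9 on the Reln knockout array (1498 to 1880 elsewhere), Lrp8 at 4.2 and 13.7 on the 2 arrays lacking Apoer2 (342.4 to 379.8 elsewhere) and Vldlr at 187.3 and 185.6 on the 2 arrays lacking Vldlr (357.6 to 551.6 elsewhere). Dab1 was 478.5 on its knockout array against 516.4 to 626.0 elsewhere, a small difference that checks the label weakly. The male label was borne out by the Apoer2 knockout array alone. Xist, the RNA of the inactive X, read 124.9 there and 3368 to 4006 on the other 5 arrays, and Y-linked Eif2s3y read 367.5 there and at most 7.7 elsewhere. That array also read 3705 for Gh, the pituitary growth hormone gene (13.1 to 32.4 elsewhere). Each member's difference without that array is given with its values. All 8 cerebral cortex markers measured passed the filter, but Purkinje cell markers were also bright on every array, with Pcp2 at 1829 to 2817, so tissue beyond the labelled frontal cortex was present in all 6 samples.

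Neurod1, the basic helix-loop-helix factor that drives granule cells out of the cycle and into differentiation, had the widest gap among the transcription factors. Its brighter probe set read 2045 on WT, 1272 on the Vldlr knockout and 2098 on the Apoer2 knockout array. In the Dab1, Reln and double knockouts it read 551.0, 416.9 and 382.1. The reeler models lay together and under every comparison array, with a log2 mean of 8.89 ± 0.26 (SD, n = 3) against 10.8 ± 0.40, a 3.78-fold difference. All log2 values here are of the signal plus 28.1, which understates folds of dim genes. The SDs span different genotypes and are not the error of any one of them. The other probe set ran alike, from 1312 to 1843 on comparison arrays and from 407.9 to 604.2 in the reeler models, a log2 difference of -1.69. Without the Apoer2 knockout array the 2 differences were -1.80 and -1.61. In whole tissue, fewer granule cells, less RNA per granule cell and a different share of cerebellar tissue in the sample cannot be told apart.

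Pax6, the paired-box homeodomain factor of rhombic lip derivatives, did not separate the classes at its brightest probe set. It read 245.3 on WT and 220.7 on the Apoer2 knockout array, but 98.2 on the Vldlr knockout array. The Dab1, Reln and double knockout arrays read 148.2, 120.9 and 88.9, so the Vldlr knockout lay among them. The log2 difference of the class means was -0.49, and it was -0.84 without the Vldlr knockout array, -0.35 without the Apoer2 knockout array and -0.29 without WT. A second Pax6 probe set, under the signal filter, did separate them, with 83.5, 110.7 and 104.4 on the WT, Vldlr and Apoer2 knockout arrays and 39.0, 37.4 and 15.9 in the Dab1, Reln and double knockouts (log2 difference -1.14). Another ran the other way, with 45.7 to 64.7 on comparison arrays and 64.9 to 84.0 in the reeler models (0.29). The remaining pair read 41.7 to 62.1 with overlap (-0.13) and 1.7 to 17.7, all at background (-0.39). The 5 probe sets of Pax6 thus gave no single answer, and those near 40 or below sit at the level of the bacterial controls.

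Barhl1 and Barhl2, BarH-like homeobox factors that migrating granule neurons express, were dim. Barhl1 read 106.2, 82.1 and 104.7 on the WT, Vldlr and Apoer2 knockout arrays and 58.8, 80 and 74.6 in the Dab1, Reln and double knockouts. The classes did not overlap, but the Vldlr and Reln knockout arrays, at their border, nearly met. Its log2 difference was -0.34 (-0.30 without the Apoer2 knockout array), with SDs of 0.16 in both classes. Its second probe set read 7.2 to 39.5, below the highest bacterial control on all 6 arrays, so no order is read from it. Barhl2 read 13.8, 16.9, 45.6, 5.9, 33.0 and 4.6 on the WT, Vldlr, Apoer2, Dab1, Reln and double knockout arrays. Only the Apoer2 knockout array exceeded the highest bacterial control, so no order is read from the other values. The class difference was -0.34, and -0.09 without the Apoer2 knockout array. Neither gene passed the signal filter, and they make up the 2 members left out of fits over all genes.

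Rcor2 encodes a corepressor of the CoREST family, which works with the histone demethylase encoded by Kdm1a. It read 250.9 on WT, 359.4 on the Vldlr knockout and 201.5 on the Apoer2 knockout array. All 3 reeler arrays read between 40.6 and 43.4, just above the highest bacterial control of 39.6. Its reeler SD was 0.03 on the log2 scale, the least spread of the members together with Il16 at 0.04. Signals that close to background cannot show differences between the models. The log2 difference was -2.07, or 4.19-fold, and -2.24 without the Apoer2 knockout array. Rcor2 passed the signal filter only through its comparison arrays, as did Il16 and Fat2, whose mean reeler signals also lay below the filter's 89.0.

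Mab21l1 encodes a protein of the Mab-21 family needed in eye and cerebellar development. Its brighter probe set read 154.4, 109.2 and 155.9 on the WT, Vldlr and Apoer2 knockout arrays and 114.3, 124.8 and 70.8 in the Dab1, Reln and double knockouts. The Vldlr knockout fell within the reeler range and the classes overlapped (log2 difference -0.37, or -0.29 without the Apoer2 and -0.17 without the double knockout array). The other probe set read 138.2, 107.1 and 153.7 against 77.4, 78.7 and 74.4, with no overlap (-0.61). The 2 probe sets differ on the Reln knockout array, which read 124.8 at one and 78.7 at the other.

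Fat2, a giant protocadherin of granule cells and their parallel fibres, had the largest difference of the 9 members. It read 642.5, 549.1 and 560.4 on the WT, Vldlr and Apoer2 knockout arrays. The Dab1, Reln and double knockout arrays read 36.4, 93.3 and 8.4. Signal was left above the bacterial controls on the Reln knockout array alone, and the other 2 reeler values are bounds. Even the lowest comparison array was at least 13.9-fold above the highest bacterial control. The log2 difference was -3.21 (-3.24 without the Apoer2 knockout array), and -2.89 with the 2 values below background set to the highest bacterial control. Fat2 has 1 probe set on this array.

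Cadps2 encodes a priming factor for dense-core vesicles that supports neurotrophin release from parallel fibres. It was even across the comparison arrays, at 1546, 1503 and 1596 on the WT, Vldlr and Apoer2 knockout arrays. The Dab1 knockout array read 1009, the double knockout 790.6 and the Reln knockout 575.5. Every reeler value lay below every comparison value, and the comparison SD was 0.04. Unlike Fat2 and Neurod1, it was lowest on the Reln knockout array, and signal was well above background on every array. The difference was -0.98 on the log2 scale, or 1.97-fold, and -0.96 without the Apoer2 knockout array.

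Il16 encodes a cytokine precursor whose neuronal splice form is found in granule cells. At the probe set used for the gene it read 315.3, 211.2 and 326.4 on the WT, Vldlr and Apoer2 knockout arrays and 86.6, 82.2 and 87.9 in the Dab1, Reln and double knockouts. The reeler arrays lay close together, below all comparison arrays, with a difference of -1.44 (2.71-fold), or -1.33 without the Apoer2 knockout array. A second probe set, under the signal filter, read 102.6, 159.2 and 177.4 against 31.5, 36.9 and 23.8 (-1.55). Those 3 reeler values lie below the highest bacterial control and are bounds. The order within the comparison arrays changed with the probe set, since the Vldlr knockout was lowest at the first and WT at the second. Another read 62.6 to 105.3 against 31.4 to 58.4 (-0.48), and the fourth stayed between 10.9 and 33.6, at background, with a difference of 0.15. Averaged over its 4 probe sets, Il16 differed by -0.83.

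**Figure D1:**
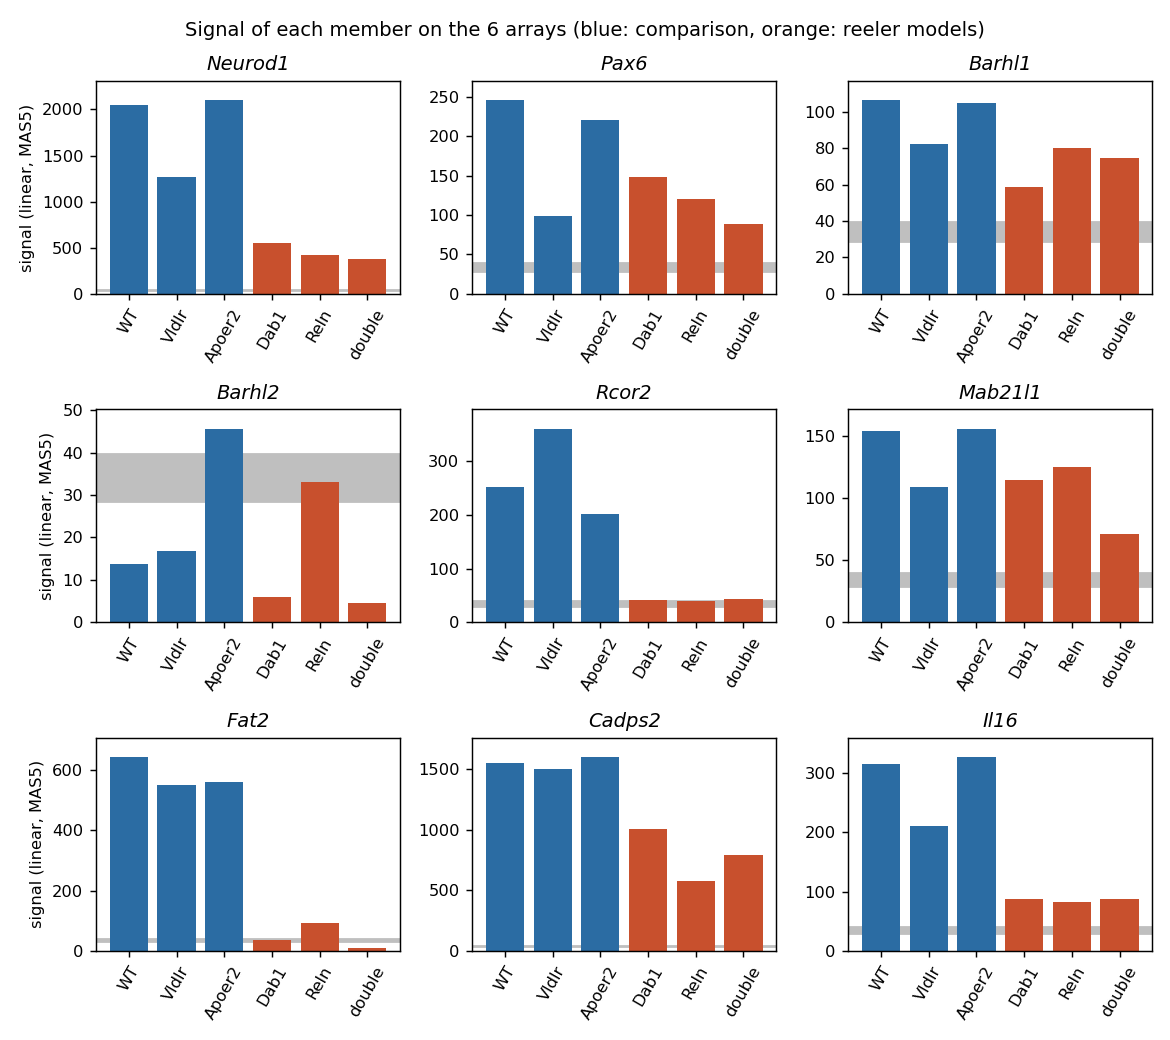
Signal (linear scale) of each member at the probe set used for the gene, 1 bar per array, blue for the comparison arrays and orange for the reeler models, with the grey band from 28.4 to 39.6 marking the highest bacterial control on each array. Fat2 and Rcor2 drop to or near the band in the reeler models, Cadps2 keeps 575.5 to 1009, and Pax6 and Mab21l1 overlap between the classes.

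Counted together, the reeler arrays lay below all comparison arrays at the main probe set of 6 of the 9 members, and 8.67% of the 11499 genes past the filter did the same (9.04% lay above). Barhl1 and Barhl2, under the filter, are in the 9 here and in later counts of members, and Barhl1 is among the 6. A difference of at least 2-fold downward was found at 4 of the 9, and at 0.252% of all genes. Over single probe sets reeler arrays lay below at 12 of 19, among them 1 Pax6 probe set at background on all arrays, and above at 1, with 7.24% and 7.39% over all 45101 probe sets. Among the 10 member probe sets under the filter it was 5, that Pax6 probe set included, with 4.80% of dim probe sets. These shares stand here as description, because the members were picked on this contrast. The class difference was below 0 at 17 of the 19 probe sets, and the median over the 9 members was -0.98, with 0.01 over all genes past the filter. The 2 exceptions were a Pax6 and an Il16 probe set with mean signals of 64.6 and 17.9.

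**Figure D2:**
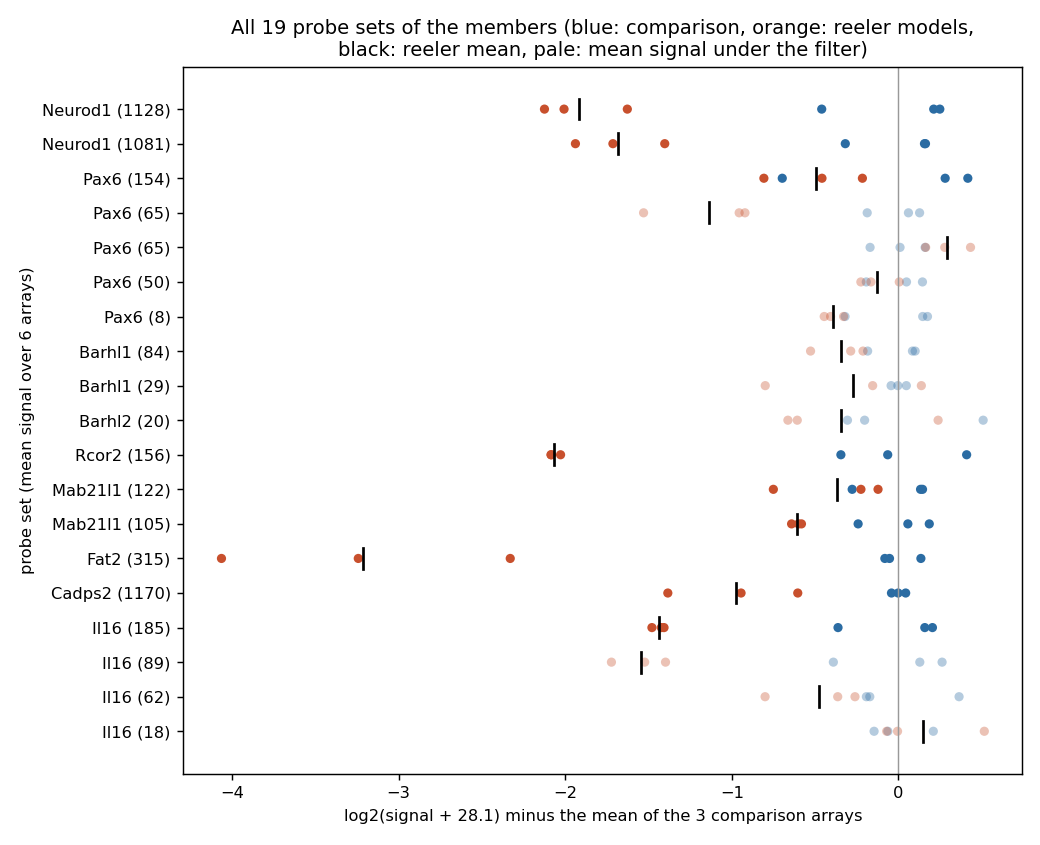
Each row is 1 of the 19 probe sets, labelled with its mean signal, and each point is 1 array on the log2(signal + 28.1) scale relative to the mean of the 3 comparison arrays (blue), with reeler models in orange, their mean as a black bar and dim probe sets in pale colours. Both Neurod1 probe sets and 2 of the 4 Il16 probe sets sit left of -1.4, while the 5 Pax6 rows spread from -1.14 to 0.29. At the dimmer of those 2 Il16 probe sets the reeler values lie below the highest bacterial control.

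Inside the receptor cross, where all 4 genotypes come from the same matings, the loss of each receptor alone can be set beside the loss of both. Each genotype is 1 array and all differences share the WT array, so their error cannot be estimated and they were not tested. On the double knockout array the log2 difference from WT was -4.20 for Fat2, -2.34 for Neurod1, -1.96 for Rcor2, -1.57 for Il16 and -0.94 for Cadps2. The Apoer2 knockout array stayed near WT for the same genes, with -0.19 for Fat2, 0.04 for Neurod1, -0.28 for Rcor2, 0.05 for Il16 and 0.05 for Cadps2. The Vldlr knockout array gave -0.22, -0.67, 0.47, -0.52 and -0.04 in that order. For all 5 genes the double knockout lay below the sum of the 2 single differences, with departures of -3.79 for Fat2, -1.70 for Neurod1, -2.16 for Rcor2, -1.09 for Il16 and -0.95 for Cadps2 on the log2 scale. Each departure includes the Apoer2 knockout array, the one that goes against the others in sex and pituitary genes. Fat2 was below the bacterial controls on the double knockout array, and with that signal set to the highest control, 39.6, its difference from WT was -3.31 and its departure -2.90. Rcor2 there was barely above that level. Pax6 was the exception among members, at -1.11 without Vldlr, -0.14 without Apoer2 and -1.22 without both, a departure of 0.03 from that sum. This holds for its brightest probe set only. The other 4 Pax6 probe sets departed downward, and the one that separated the classes had 0.31 without Vldlr, 0.25 without Apoer2 and -1.34 without both, a departure of -1.91. At the probe sets used for the genes, 8 of 9 members departed downward, as did 48.0% of all genes past the filter, and Barhl2, at background, is among the 8. The members were picked as lower in the class that holds the double knockout than on the other arrays of this cross. That choice itself favours a downward departure, so the departures and their count are description only.

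**Figure D3:**
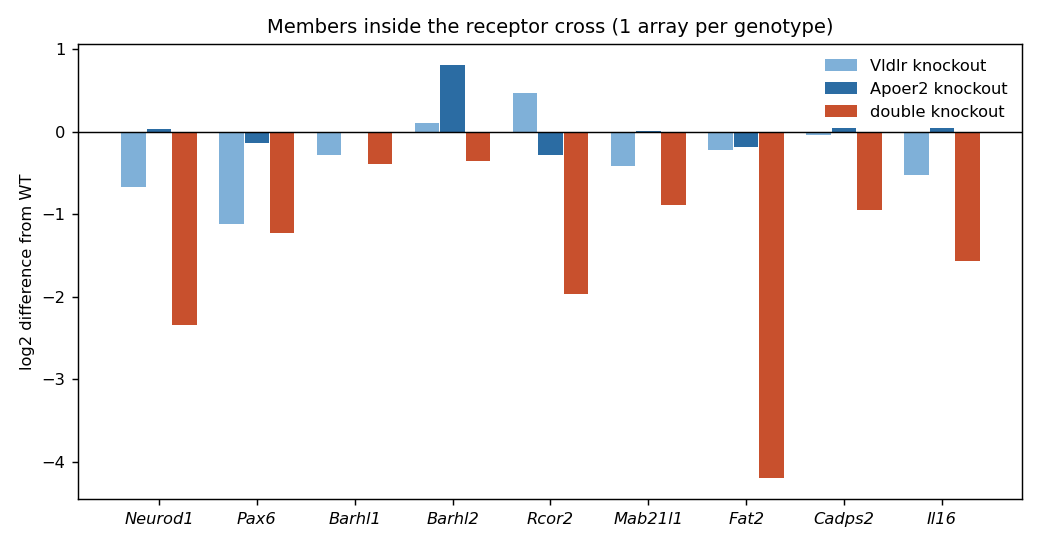
Bars give the log2 difference from the WT array for the Vldlr (light blue), Apoer2 (dark blue) and double (orange) knockout arrays, 1 array each, at the probe set used for each member. The double knockout reaches -4.20 for Fat2 and -2.34 for Neurod1 while both single knockouts of Fat2 lie between -0.22 and -0.19, and for Pax6 the Vldlr bar nearly matches the double. The double knockout bars of Fat2 and Barhl2 rest on signals below the highest bacterial control, and the Fat2 bar would reach -3.31 with that control in its place.

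The Vldlr knockout array was the lowest of the 3 comparison arrays at 7 of the 9 members, as it was for 37.0% of all genes past the filter. Rcor2 and Barhl2 were the exceptions. Summed signals of 2 other gene groups were lowest of the comparison arrays there too. Choroid plexus markers summed to 5832 there, against 8733 on WT and 8527 on the Apoer2 knockout array, and hindbrain markers to 457.3 against 994.7 and 633.5. Most of the choroid plexus sum is Ttr (7724, 5159 and 7610 on the WT, Vldlr and Apoer2 knockout arrays). Clic6 and Folr1, the others past the filter, were also lowest without Vldlr. Of 9 hindbrain genes, 2 passed the filter. Slc6a5 read 305.1, 61.9 and 167.8 in the same order, but Slc6a2, at 145.5, 152.9 and 176.6, was not lowest without Vldlr. The part of these groups in the Vldlr values was not tested. At least 2-fold below WT there was 1 member (Pax6) without Vldlr and 0 without Apoer2, with 0.478% and 0.191% of all genes. Any value below WT was seen at 7 members without Vldlr and 4 without Apoer2, with 50.0% and 48.4% of all genes.

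The 3 reeler models did not rank the members alike. Against the shared WT array, at least 2-fold lower values were found for 4 members without Dab1 (0.748% of all genes), 5 without Reln (1.32%) and 5 without both receptors (0.591%). Fat2, Neurod1, Rcor2 and Il16 were among them on all 3 arrays, joined by Cadps2 (-1.38) on the Reln and by Pax6 (-1.22) on the double knockout array. Any value below WT was seen at 9, 8 and 9 members in that order, with 49.1%, 50.8% and 47.5% of all genes. Barhl2, at background on all 3 arrays, is counted among these. Neurod1, Pax6 and Mab21l1 were lowest without both receptors, Cadps2 without Reln and Barhl1 without Dab1, each at the probe set used for the gene. Il16 was nearly level across the 3 models, and Fat2, Barhl2 and Rcor2 were too near background to rank. Among the brighter members, Neurod1 spanned 0.50 and Cadps2 0.78 on the log2 scale across the 3 models. With 1 array per model, neither span can be set against a replicate error.

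Profiles over the 6 arrays were then compared to find the genes most like the members. The profile was the mean of the centred log2 signals of the 7 members past the filter, and 652 other genes with a range of at least 1 were ranked by Pearson's r. The 10 most alike were En2 (r = 0.998), Gabra6 (0.994), Cbln1 (0.990), Cbln3 (0.989), Cnpy1 (0.989), Grin2c (0.985), Zic1 (0.983), St18 (0.983), Kank2 (0.979) and Kcnk3 (0.975). They are given as a description over 6 shared arrays, 3 high and 3 low, where high correlations are easily reached. En2, a homeobox gene of the midbrain and hindbrain, read 402.1, 301.7 and 383.5 on the WT, Vldlr and Apoer2 knockout arrays. In the reeler models it was highest without Reln (109.8) and lowest without both receptors (74.4), whereas the members' profile was lower without Reln than without Dab1. Gabra6, which encodes a GABA-A receptor subunit of granule cells, read 1797, 1248 and 2015, then 185.7, 251.5 and 106.6 in that order.

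Members differed in their nearest neighbours. Fat2 was nearest to Mybpc3 (r = 0.998), Cnpy1 and Cbln3, and Neurod1 to Kank2 (0.990), Zic1 and Abca7. Il16 was nearest to Chn2 (0.993), Grin2c and Kank2. Cadps2, with its lowest value on the Reln knockout array, was nearest to Them6 (0.994), Phf21b and Kptn, and Rcor2, highest on the Vldlr knockout array, to Xaf1 (0.983), C330018D20Rik and Arhgap35. Pax6 was nearest to Ecrg4 (0.948), Aven and Sc5d, which shared its dip on the Vldlr knockout array. Mab21l1 was nearest to Mroh2a (0.967), Col1a1 and Nup188. Between members, r was highest for Neurod1 with Il16 (0.989) and lowest for Pax6 with Rcor2 (0.377).

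**Figure D4:**
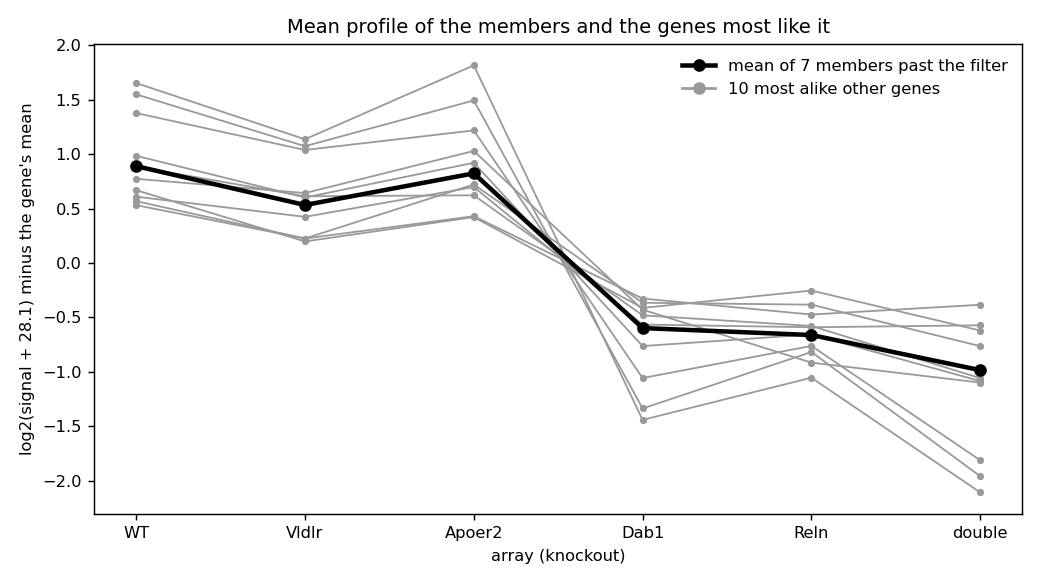
Centred log2(signal + 28.1) on each of the 6 arrays for the mean of the 7 members past the filter (black) and for each of the 10 other genes most like it (grey). The black line lies at 0.89, 0.53 and 0.82 on the WT, Vldlr and Apoer2 knockout arrays and at -0.60, -0.66 and -0.98 in the Dab1, Reln and double knockouts.

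Genes that work with the members, or stand beside them in their families, were listed by function and tested in limma over all 11499 genes, leaving the members aside. Of 80 such genes past the filter, 8 passed an adjusted p of 0.05 as lower and 0 as higher, with 0.113% and 0.0174% over all genes (0.130% in either direction). At an unadjusted p of 0.05 in limma, 23 were lower and 2 higher, with 5.81% and 5.23% over all genes. Without the WT array 0 of these genes passed at the adjusted p (22 lower at an unadjusted p in limma), and in the receptor cross alone, with the double knockout as the lone reeler array, 5 did. The test takes arrays of different genotypes as replicates of a class, so its p-values measure only the spread between these 6 arrays. Earlier results of these data were known when the lists were made, so the direction of the cerebellar genes is no independent evidence.

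Mature granule cell genes held most of the calls. Of 12 past the filter, 6 passed the adjusted p as lower, 10 were lower at an unadjusted p in limma and 11 lay below 0. The median log2 difference was -0.91. Gabra6 fell by 3.07 (SE 0.26, adjusted p = 0.00571 in limma), and Cbln3, which encodes a cerebellin of granule cells, fell by 2.74 (SE 0.26, adjusted p = 0.00571). Cbln1 (-1.41), the NMDA receptor subunit gene Grin2c (-1.15), Chn2 (-1.01), whose product regulates Rac, and Fgf14 (-0.71), whose product modulates sodium channels, passed as well. Genes of this list that did not pass included Grm4 (-0.92, adjusted p = 0.0585 in limma) and Gabrd (-0.90, adjusted p = 0.149). The highest were Slc17a7 (0.08), the vesicular glutamate transporter that cortical neurons also use, and Tiam1 (-0.19). The 12 probe sets summed to 17735 to 19961 on the comparison arrays and to 10996 to 12395 in the reeler models.

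Of 13 other transcription factors of the granule lineage past the filter, 2 passed the adjusted p as lower. At an unadjusted p in limma 6 were lower, 11 lay below 0 and the list median was -0.20. En2 fell by 1.67 (SE 0.16, adjusted p = 0.00571) and Zic1, a zinc finger factor of granule neurons, by 1.63 (SE 0.17, adjusted p = 0.00839). Nfib (-0.57, adjusted p = 0.184), Zic5 (-0.53) and Zic4 (-0.52) did not pass, nor did Gli1 (0.28) and Lhx9 (0.20) at the top. Atoh1, which marks dividing granule progenitors, was dim at 33.8 to 65.2 with overlapping classes. Uncx and Zic2, both under the filter, had reeler values below all comparison values, as did 4.80% of dim probe sets. Uncx read 10.5 to 100.2 on the comparison arrays against 4.5 to 6.8 in the reeler models. Its 10.5, on the Vldlr knockout array, and its reeler values lay below the bacterial controls, so no order is read between them. Zic2 read 70.9 to 106.5 against 37.9 to 39.6, with the reeler values at or below the highest bacterial control. None of the 14 genes of granule cell migration and adhesion past the filter passed, and 1 lower and 1 higher did at an unadjusted p of 0.05 in limma. Their median was -0.06, between Unc5b (-0.69, adjusted p = 0.126), Cntn2 (-0.29), Ntrk2 (0.20) and Bdnf (0.24).

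Relatives of the members mostly lay near 0. Cadps, the paralog of Cadps2, read 2014, 2077 and 2017 on the WT, Vldlr and Apoer2 knockout arrays and 2199, 1879 and 2074 in the Dab1, Reln and double knockouts, a log2 difference of 0.01. Over the 14 genes of dense-core vesicle release past the filter the median was 0.12, with Unc13c (-0.47) and Unc13a (-0.39) lowest and Chga (0.42) and Scg2 (0.38) highest. None passed, and 3 lower and 1 higher did at an unadjusted p in limma. Of the CoREST partners of Rcor2, 0 of 9 passed (1 lower at an unadjusted p in limma). Rcor1 (-0.35) and Hmg20b (-0.09) were lowest and Phf21a (0.07) and Hdac1 (0.05) highest. Kdm1a read 767.0 to 890.4 over the 6 arrays. Among the cadherins related to Fat2, 0 of 5 passed (1 lower at an unadjusted p in limma), with Fat1 at -0.48 (adjusted p = 0.106), Fjx1 at -0.12, Fat4 at 0.09 and Dchs1 at 0.01.

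The basic helix-loop-helix relatives of Neurod1 had 0 calls among 6 genes, at the adjusted and at the unadjusted p in limma, with a median of -0.11. Atoh7 (-0.34) and Tcf3 (-0.28) were lowest, and Neurod2 (-0.04) and Neurod6 (-0.04), which forebrain neurons express, were highest. Of the Pax genes past the filter, Pax5 (-0.34) and Pax8 (0.15) did not pass, and neither did Mab21l2 (-0.07), with 0 calls at an unadjusted p as well. Among 8 genes whose products bind Il16 or are related channel or receptor subunits, Grin2c was the 1 call. Kcnc1 (-1.01, adjusted p = 0.0604) and Kcnd2 (-0.37) did not pass. The highest were Kcnc2 (0.10) and Grin2d (0.06).

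**Figure D5:**
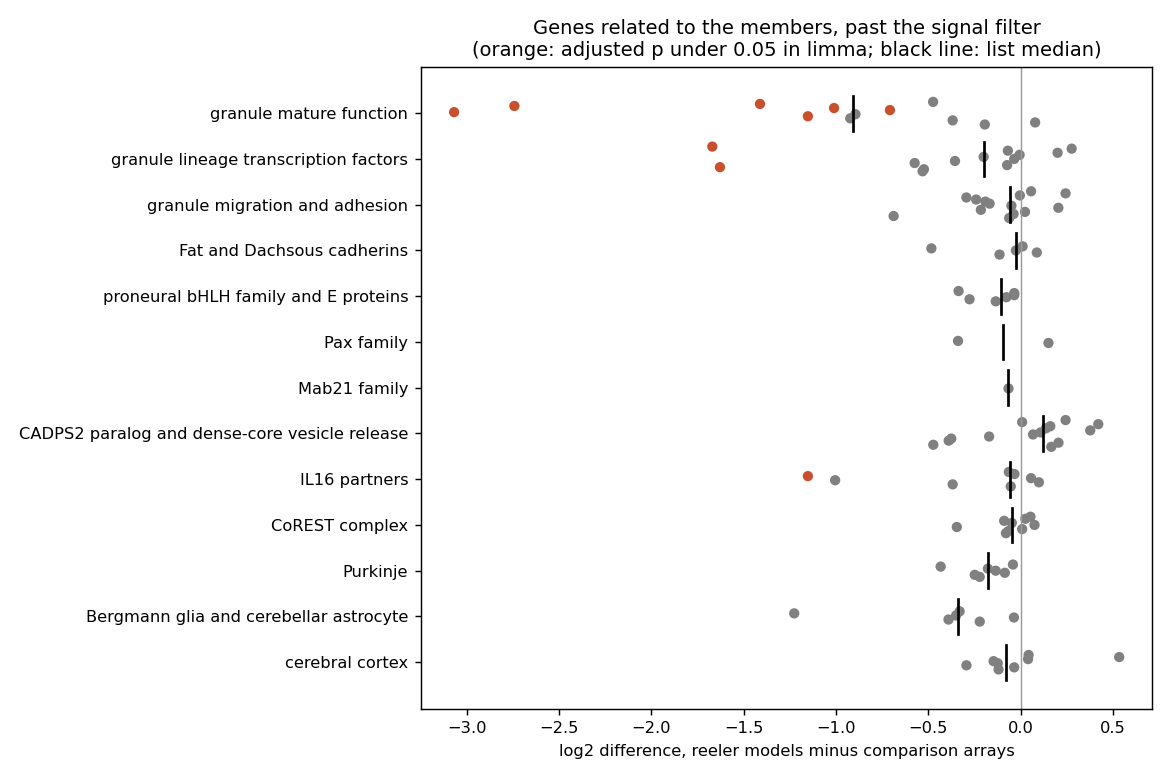
Each point is 1 gene past the signal filter that is related to a member by function or family, or marks another cell type, placed by its log2 difference between reeler models and comparison arrays, with list medians as black lines and genes past an adjusted p of 0.05 in limma in orange. Mature granule genes lie furthest left with a median of -0.91, while the Cadps2, Fat2 and Rcor2 relatives centre between -0.05 and 0.12.

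Markers of other cells were measured on the same arrays. Of 7 Purkinje cell genes past the filter, 0 passed the test (2 lower at an unadjusted p in limma), all 7 differences were below 0 and the median was -0.18. Their summed signal was 15258 to 16400 on the comparison arrays. It was lower without Reln (13103) and without both receptors (13182) but not without Dab1 (16433), and its part in the members' values was not tested. Genes of Bergmann glia and cerebellar astrocytes had 0 calls of 6 and 4 lower genes at an unadjusted p in limma, with Gdf10 lowest (-1.23, adjusted p = 0.0598). Their summed signal did not overlap, at 7645 to 8399 against 5993 to 6501. Unipolar brush cell genes did not overlap either, at 2120 to 2526 against 1408 to 1821. Of 2 past the filter, 0 passed (2 lower at an unadjusted p in limma). Most of that sum is Calb2 (1861 of 2120 on WT), which is also on the mature granule cell list. The part of unipolar brush cells in the members' values was not tested. Thalamus genes did not overlap (6793 to 7288 against 4918 to 5453), with Zic1 as the 1 call; Zic1, Zic4 and Rora, the 3 lower genes of that list, are also cerebellar genes. The sum of hypothalamus genes ran the other way, at 3837 to 4417 against 4473 to 5139, with 0 calls of 6 (1 higher at an unadjusted p in limma). Much of that sum is Sst (0.32), at 1880 to 1942 against 2295 to 2535. Sst was the only 1 of the 6 whose classes did not overlap. The part of either group in the members' values was not tested. Cerebral cortex genes overlapped (3701 to 4093 against 3229 to 4123), as did those of cerebellar interneurons (2373 to 2599 against 2357 to 2551), dentate granule cells (4168 to 4404 against 4014 to 4400) and the olfactory bulb (3233 to 3732 against 3046 to 3383). Most of the dentate sum is Calb1 (3101 of 4168 on WT), which is also on the Purkinje cell list. Prox1, which defines dentate granule cells, read 71.7 to 86.5. For Il16, lymphocyte and leukocyte genes overlapped (1746 to 1917 against 1762 to 2125), with Cd2 at or below 33.9. For Pax6, 0 of 4 retina and lens genes passed the filter, and their sums overlapped (95.6 to 139.0 against 119.6 to 155.6). Pituitary genes summed to 4498 on the Apoer2 knockout array and to 310.0 to 392.8 on the others.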

How the data were processed

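The deposited values are linear signal intensities for 45101 probe sets on 6 arrays, which, according to the submitters' processing notes, the authors made using Expression Console (Affymetrix) with the MAS5 method, of unstated version. The platform annotation named the probe sets (34958 with 1 gene, 932 with several, 9211 unnamed here), and 34754 matched RefSeq's gene table (GRCm38.p6). Sequences and their coordinates are RefSeq's. Each gene took its probe set of highest mean signal, those ending in _x_at last. The filter kept genes whose mean signal reached 89.0, which is the probe sets' median. Values entered the fit as log2(signal + 28.1), the 25th percentile of all values, with limma 3.58.1 in R 4.3.3, a trended prior, and p-values adjusted by Benjamini-Hochberg over every gene past the filter. The fit was tested on simulated data. Nothing says that arrays of a class are replicates of 1 genotype, and p-values carry that limit.

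The members and lists were chosen with earlier results of these data known. Named genes are all members, up to 6 called genes and the 2 highest and 2 lowest of each list described, and the most alike profiles; Uncx, Zic2, Atoh1, Cadps, Kdm1a, Prox1, Cd2 and genes named for values between these were picked with their values in view. Other settings tried were pseudocounts, filters, normalization, probe set rules and priors, leaving out each array, WT as the only comparison array and, chosen after seeing the data, the receptor cross alone.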

Additional observations from a re-analysis of the deposited data

How the results depend on the processing

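No member changed the sign of its class difference under any of the 15 alternatives computed for it. The filter and prior settings cannot alter that difference, and the members were picked on its sign, so the steady sign is description only. Fat2 ranged from -4.18 to -2.36, Neurod1 from -2.15 to -1.79, Rcor2 from -2.63 to -1.44, Il16 from -1.69 to -0.83, Cadps2 from -1.16 to -0.77, Pax6 from -0.91 to -0.29, Mab21l1 from -0.75 to -0.17, Barhl1 from -0.45 to -0.22 and Barhl2 from -1.08 to -0.04. Inside the receptor cross, the median over members of the double knockout minus WT was -1.22, and -0.91 with the median as pseudocount or -0.93 with the mean of all probe sets; the larger pseudocount by its construction shrinks log2 differences. The count over all genes was 15, against 24 with every probe set tested, 0 with WT as the only comparison array (892 at an unadjusted p of 0.05 in limma) and 1 (without WT) to 22 (without the Dab1 knockout) when single arrays were left out. The 8 lower genes related to the members became 5 in the receptor cross alone, 0 with WT alone (20 at an unadjusted p in limma) and, as a range, 0 to 9 when single arrays were left out. The count of 0 came without the WT array, where 22 were lower at an unadjusted p in limma, and the cause was not tested. The receptor cross and the WT setting leave 1 array in one arm, which is assumed to vary like the other group, so their counts say little about how stable the calls are. Without the Apoer2 knockout array, the one that goes against the others in sex and pituitary genes, 6 of the 8 were called, and 7 without the Vldlr knockout array. No replicate exists for any genotype, and signals of Barhl2, and of Fat2 and Rcor2 in the reeler models, lie too near background to rank.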
